A study of Mus musculus with 24 samples.

Results

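Male mouse astrocytes expressing p53 Y217C were compared with male astrocytes that had lost p53 (p53 KO), gene by gene, across all 14427 genes of the deposited count table. The lines were taken by the culture, genotype and replicate that the labels give, which left 6 of the 24 RNA-seq libraries, 3 per line. Both lines came from a single male culture of cortical astrocytes that combined at least 3 Trp53 f/- C57BL/6 pups at postnatal day 1, and the female culture, made in the same way, supplied 4 of the 8 lines of the series. The p53 Y217C line had been given a retrovirus (pMSCV-IRES-GFP) carrying Trp53 with the Y217C substitution and was sorted for eGFP. Both lines were then transduced with a lentivirus carrying Cre and puromycin resistance and selected with puromycin, so that the floxed allele was removed in the mutant line as well. No retrovirus or sort is given for the p53 KO line in the sources used here. The cells were grown in DMEM/F12 with 10% FBS and taken at passages 10 to 15.

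Each genotype is therefore 1 line per culture, and the mutation, the retrovirus, the sort and the history of the line cannot be told apart. The mutant is overexpressed from a viral promoter and not from its own locus. In vitro replicates are described as independent thaws and platings, so the p-values reflect variation among platings of the same line and carry no information on other animals or newly made lines.

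p53 is a transcription factor that halts the cell cycle or triggers cell death when DNA is damaged. It binds DNA through a central domain in which most missense mutations found in tumours lie, and such mutants commonly accumulate to high levels while losing the normal target genes. Astrocytes are the glia that take up glutamate, buffer potassium and water and support synapses.

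The substituted residue is a tyrosine of the DNA-binding domain. The stretch below is shown to place the substitution in the gene. It is the coding reference sequence of codons 205 to 229 of the 390-codon frame on the plus strand, from GENCODE M21 on GRCm38, with the codon of the substituted tyrosine (TAT) in capitals. That codon lies at chr11:69588724-69588726, in exon 6 of 11 of Trp53, and becomes a cysteine codon in Y217C. The bases of the retroviral construct were not used here.

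Trp53 reference, codons 205 to 229: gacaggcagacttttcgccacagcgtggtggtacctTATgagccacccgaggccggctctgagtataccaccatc

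Trp53 itself separated the lines. Its level was 53.7, 50.7 and 48.3 CPM (read counts per 1e6 of the library total, scaled by the TMM method) in the p53 KO libraries and 1188, 1247 and 1211 CPM in the p53 Y217C libraries. This is a log2 difference of 4.58 ± 0.06 (SE, n = 3 against 3, adjusted p = 2.44e-25), and adjusted p-values throughout come from edgeR's quasi-likelihood test with Benjamini-Hochberg adjustment over all 14427 genes. Counts per gene do not separate the construct from the endogenous locus, and transcripts that lack the deleted exons still give reads, so that the residual p53 KO reads do not check the deletion. The male p53 Y217C mean of 1215 CPM lay below the 2287 CPM of male p53 R172H and the 2324 CPM of male p53 Y202C, the other mutant lines of the culture, and below the 3709 CPM of female p53 Y217C.

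The p53 Y217C libraries held 70.02 to 75.1 M counts (M, 1e6 counts) and the p53 KO libraries 83.3 to 131.8 M, with TMM factors of 1.067 to 1.074 and 0.994 to 0.996. Among genes above 1 CPM the median coefficient of variation between libraries of a line was 5.3% in p53 Y217C and 4.9% in p53 KO. Replicates differed by more than counting noise, with a mean chi-square per gene of 11.1 to 29.2, so that no library was a second copy of another. The labelled cell type was only partly borne out in p53 KO, where Gfap, Aqp4, S100b and Kcnj10 each stayed at or below 0.290 CPM, while Vim and Sox9 were well expressed in both lines. Aldh1l1 and Slc1a2 were low in p53 KO too, with means of 0.629 and 0.573 CPM, and Col1a1, a fibroblast marker, averaged 17294 CPM. The study assessed astrocyte purity by immunofluorescence for GFAP, which reads protein and not RNA. In bulk RNA, fewer cells of a type and less RNA per cell cannot be told apart.

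Of the 14427 genes, 10161 (70.4%) differed at an adjusted p of at most 0.05. With TMM scaling, which centres the bulk of genes, 5027 were higher in p53 Y217C (34.8%) and 5134 lower (35.6%), and the median log2 difference of all genes was 0.0003. With library totals alone the median was 0.105, with 5993 genes higher and 4172 lower. Among the genes that differed the median size was 0.58 on the log2 scale, and 2881 (20.0%) differed by more than 2-fold, 1546 of them higher (10.7%) and 1335 lower (9.25%). Beyond 4-fold the counts were 627 higher and 576 lower, and beyond 16-fold they were 201 and 81. Every share given below for a gene group is to be read against 34.8% and 35.6%.

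Astrocyte genes were mostly higher in p53 Y217C. Of 28 measured markers, 21 were higher, 2 were lower and 5 did not pass the test, with a median log2 difference of 1.67. Of the 16 genes of the mature astrocyte 14 were higher and 0 lower, with a median of 3.44, and Gja1 and Fgfr3 were not called. The deposited table held only genes that had passed a filter at 1 CPM. Gfap, Kcnj10 and Sparcl1 averaged above 1 CPM in male p53 Y217C alone, so the filter could keep them only as higher. The 12 glial transcription factors and progenitor genes were mixed, with 7 higher, 2 lower and a median of 0.16.

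Gfap, the intermediate filament protein that defines astrocytes, was at 0.290, 0.238 and 0.244 CPM in p53 KO and at 8.37, 4.98 and 7.45 CPM in p53 Y217C, a log2 difference of 4.76 ± 0.39 (SE, adjusted p = 8.39e-11). Aldh1l1, a folate enzyme used as a pan-astrocyte marker, went from 0.508, 0.723 and 0.655 CPM to 62.2, 48.9 and 58.7 CPM (6.46 ± 0.17, adjusted p = 1.96e-20). The p53 KO and p53 Y217C libraries did not overlap for either gene. Aqp4, the water channel of astrocyte endfeet, rose from at most 0.145 CPM to at least 6.998 CPM (6.18 ± 0.34, adjusted p = 1.22e-12). Mlc1, a membrane protein of the same endfeet, rose from 0.218, 0.151 and 0.122 CPM to 57.8, 44.4 and 58.6 CPM (8.40 ± 0.56, adjusted p = 4.24e-11).

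The glutamate transporters rose as well. Slc1a3 (GLAST) was at 11.5, 12.2 and 12.9 CPM in p53 KO and at 109, 97.8 and 110 CPM in p53 Y217C, a log2 difference of 3.11 ± 0.11 (adjusted p = 1.11e-17). Slc1a2 (GLT-1) was at 0.544, 0.572 and 0.602 CPM against 7.77, 7.22 and 8.46 CPM (3.76 ± 0.22, adjusted p = 9.03e-14). For both transporters every p53 Y217C library exceeded every p53 KO library.

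Sparcl1 (hevin), a secreted protein by which astrocytes promote synapse formation, was listed at 0, 0.111 and 0.137 CPM in p53 KO and at 56.4, 42.3 and 61.3 CPM in p53 Y217C (9.14 ± 0.37, adjusted p = 4.15e-16). Clu, which encodes the secreted chaperone clusterin, rose from 11.7, 15.1 and 15.7 CPM to 251, 211 and 263 CPM (4.09 ± 0.17, adjusted p = 4.59e-15). Kcnj10, the Kir4.1 potassium channel, rose by 5.58 ± 0.49 on the log2 scale (adjusted p = 2.77e-10), and Apoe, the main lipid carrier of the brain, by 1.83 ± 0.14 (adjusted p = 2.98e-11). S100b rose by 2.54 ± 0.36 (adjusted p = 8.34e-07), but Dip2a overlaps it on the opposite strand and the strand used in counting is not given in the sources used here.

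**Figure D1:**
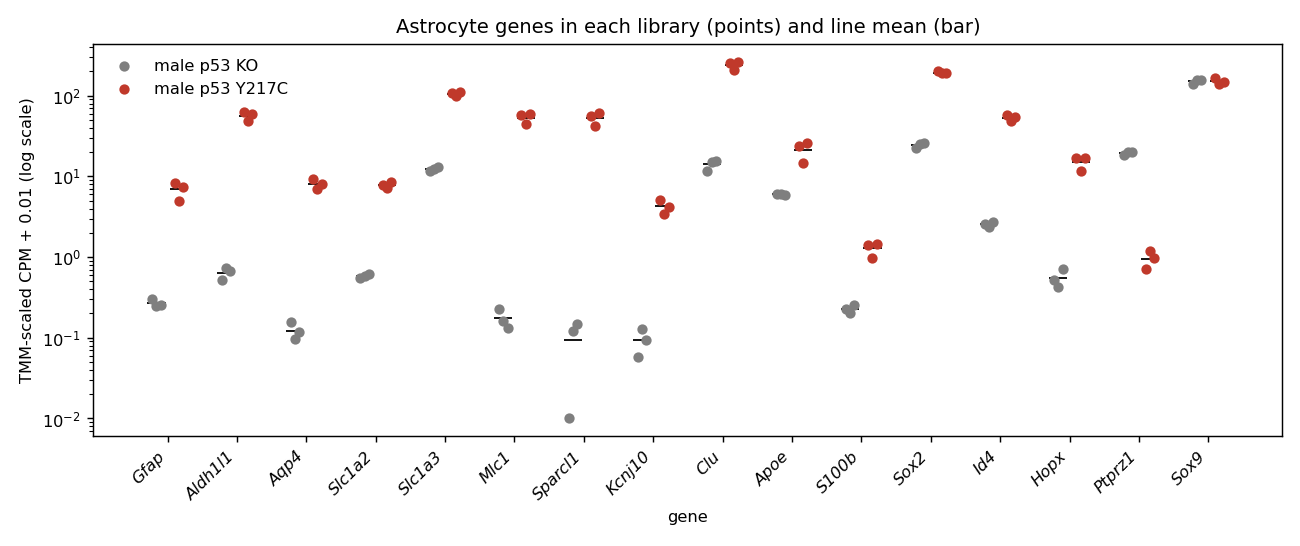
Levels of 16 astrocyte genes in the 3 male p53 KO libraries (grey) and the 3 male p53 Y217C libraries (red), as TMM-scaled CPM with 0.01 added on a log axis, 1 point per library and a bar at the mean of the line. For Gfap the p53 KO libraries lie between 0.238 and 0.290 CPM and the p53 Y217C libraries between 4.98 and 8.37 CPM, Ptprz1 is the one gene shown that is lower in p53 Y217C, and for Sox9 the points of the lines overlap.

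Among the regulators, Sox2, a neural stem cell factor, rose from 22.4, 25.3 and 25.8 CPM to 200, 190 and 190 CPM, a log2 difference of 2.98 ± 0.07 (adjusted p = 9.11e-20). Id4, an inhibitor of bHLH factors found in neural stem cells and astrocytes, rose from 2.56, 2.38 and 2.70 CPM to 56.9, 48.4 and 54.4 CPM (4.39 ± 0.11, adjusted p = 1.23e-20). Id4 and Nfib overlap antisense transcripts whose reads may be counted to either. Nfib and Nfix, members of the NFI family that switch on astrocyte genes in development, rose by 1.51 ± 0.12 (adjusted p = 7.75e-11) and 1.18 ± 0.06 (adjusted p = 3.08e-15).

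Others of the regulators were not called or fell. Sox9, another gliogenic factor, was at 139, 156 and 157 CPM in p53 KO and at 164, 140 and 147 CPM in p53 Y217C, and these ranges overlapped (adjusted p = 0.948). Nfia had a log2 difference of 0.16 ± 0.09 (adjusted p = 0.104), which passed the test at 0.23 without p53 Y217C replicate 3. Nes, the intermediate filament of progenitors, had a difference of 0.09 ± 0.10 (adjusted p = 0.476). Ptprz1, a receptor phosphatase of glial progenitors, went the other way, from 18.5, 20.3 and 20.2 CPM to 0.711, 1.16 and 0.951 CPM. It fell by 4.39 on the log2 scale (SE 0.14, adjusted p = 9.91e-19).

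The proximal promoters of 3 astrocyte genes that rose are shown because these genes define the cell type and have an entry in the promoter table, from RefSeq on GRCm38.p6. Each is the 250 bases before the annotated start on the gene's own strand, and capitals mark a match to a searched motif.

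Gfap, chr11:102897201-102897450, minus strand: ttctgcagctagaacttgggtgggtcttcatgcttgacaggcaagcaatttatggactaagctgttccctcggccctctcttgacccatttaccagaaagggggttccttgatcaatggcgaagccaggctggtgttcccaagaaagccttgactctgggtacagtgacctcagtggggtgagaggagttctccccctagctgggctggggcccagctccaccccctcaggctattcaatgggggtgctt
Aldh1l1, chr6:90550543-90550792, plus strand: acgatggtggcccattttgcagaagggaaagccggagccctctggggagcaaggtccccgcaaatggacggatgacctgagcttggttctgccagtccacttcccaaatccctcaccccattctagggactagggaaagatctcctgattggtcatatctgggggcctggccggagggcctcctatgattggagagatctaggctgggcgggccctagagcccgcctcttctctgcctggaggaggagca
Mlc1, chr15:88978554-88978803, minus strand: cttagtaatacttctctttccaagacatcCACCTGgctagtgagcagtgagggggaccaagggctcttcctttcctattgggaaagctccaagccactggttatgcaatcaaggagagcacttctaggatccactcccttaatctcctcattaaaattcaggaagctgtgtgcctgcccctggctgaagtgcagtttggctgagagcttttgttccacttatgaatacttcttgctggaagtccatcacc

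These windows were searched on both strands for ACAAAG, the core recognised by SOX factors, for TTGGCA, the half-site of NFI factors, and for CAGGTG, the E-box bound by Snail, Slug and ZEB1. The SOX core was held by 16.5% of the 27025 promoters of that table, the NFI half-site by 12.5% and the E-box by 17.1%. Among the 17 astrocyte markers that rose and have an entry, 2 held the SOX core, 2 the NFI half-site and 1 the E-box, which is the capitalised match in Mlc1, read on the opposite strand. Gfap and Aldh1l1 held none of the 3 in these bases.

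Homeobox and T-box genes, which fix the position of cells along the body and within the brain, were divided by region. Of 10 measured forebrain genes, 7 were higher, 2 were lower and the median log2 difference was 1.09. Of 20 genes of the trunk, face and other regions, 4 were higher, 12 were lower and the median was -0.68.

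Lhx2, which maintains cortical progenitors, rose from 3.60, 3.24 and 3.17 CPM to 25.4, 26.3 and 25.5 CPM (2.95 ± 0.13, adjusted p = 3.23e-16). Nr2f1, a nuclear receptor that patterns the cortical areas, rose from 56.6, 60.9 and 61.1 CPM to 334, 336 and 330 CPM (2.48 ± 0.07, adjusted p = 6.96e-20). Otx1 rose by 2.62 ± 0.11 (adjusted p = 9.94e-17). Six3 rose by 3.17 ± 0.09 (adjusted p = 1.96e-19) and Emx2 by 1.65 ± 0.07 (adjusted p = 7.01e-17). Six3, Emx2 and Nr2f1 overlap noncoding transcripts of the opposite strand whose reads could not be kept apart.

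Among genes of other regions, Msx1, a factor of craniofacial and limb mesenchyme, was at 41.0, 47.4 and 47.1 CPM in p53 KO and at 8.61, 9.66 and 8.78 CPM in p53 Y217C. It fell by 2.32 on the log2 scale (SE 0.07, adjusted p = 1.51e-19). Tbx18, found in mural cells and their precursors, fell by 2.15 (SE 0.06, adjusted p = 1.89e-19), and Alx1 and Alx4, factors of facial mesenchyme, fell by 2.62 and 2.07. En1, the midbrain and hindbrain factor, fell by 2.05 (SE 0.12, adjusted p = 9.50e-14). Tbx2 went against the group, from 0.266, 0.278 and 0.350 CPM to 6.61, 5.63 and 6.11 CPM (4.34 ± 0.28, adjusted p = 7.55e-13). Hoxa7 was at 0, 1 and 3 counts in the p53 KO libraries and at 236, 236 and 263 counts in p53 Y217C, a ratio of 269 (95% exact interval 105 to 990, counting error only). It averaged above 1 CPM in male p53 Y217C alone, so the filter could keep it only as higher.

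**Figure D2:**
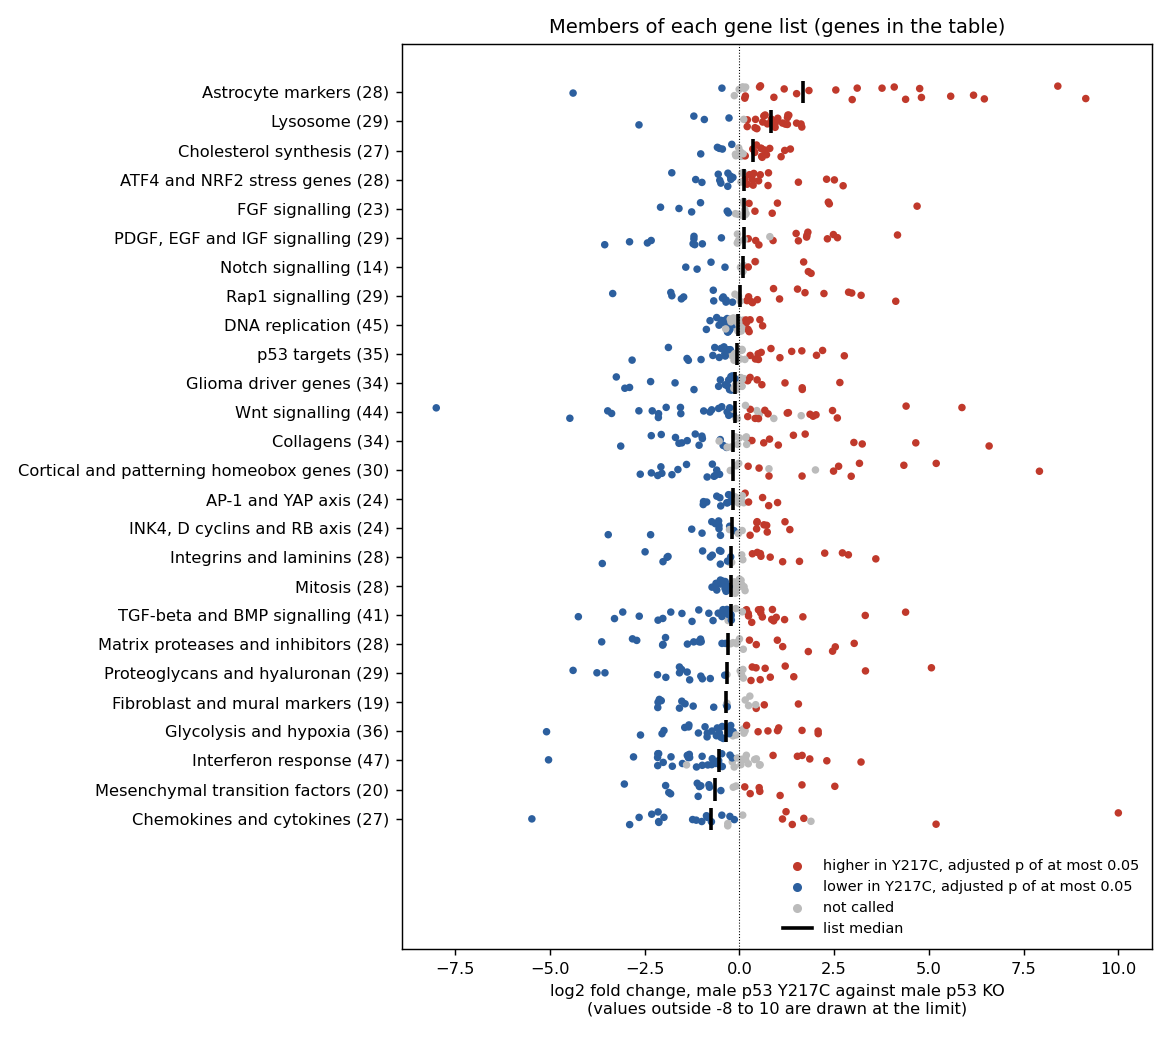
Log2 difference of male p53 Y217C from male p53 KO for each measured member of the 26 of 32 gene groups with at least 14 measured genes, 1 point per gene, red where higher, blue where lower and grey where not called, with a black bar at the median of the group and the number measured in brackets. The plotted groups are in order of their medians, from 1.67 for the astrocyte markers and 0.84 for lysosome genes down to -0.74 for chemokines and cytokines, and most hold members on both sides of 0. The 6 smaller groups, of which the endothelial one has a median of -2.62, are not drawn.

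Fibroblast markers were more often lower than higher. Of 19 measured fibroblast and mural markers, 3 were higher and 11 lower, with a median log2 difference of -0.34, and their summed level was 36100 to 41500 CPM in p53 KO and 24000 to 24700 CPM in p53 Y217C. Without p53 Y217C replicate 2, 5 were higher. The 12 fibroblast genes among them had 8 lower and 2 higher, with a median of -1.06. None of these markers was at 0 in every library of a line, and whether other cells in the culture had a part in the results was not tested.

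Col1a2, a chain of type I collagen, was at 9236, 10449 and 11102 CPM in p53 KO and at 2427, 2432 and 2512 CPM in p53 Y217C. It fell by 2.06 on the log2 scale (SE 0.09, adjusted p = 3.34e-16). Its partner chain Col1a1 moved far less, from 15819, 17160 and 18903 CPM to 13374, 14059 and 13524 CPM, and fell by 0.34 (SE 0.08, adjusted p = 3.90e-04). The lines did not overlap for either chain. Col3a1, of another fibrillar collagen, fell by 1.52 (SE 0.08, adjusted p = 2.46e-14), and Fn1, fibronectin, by 0.79 (SE 0.06, adjusted p = 4.21e-12).

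Of all 34 collagen genes 11 were higher and 14 lower, with a median of -0.16, which is close to the shares of all genes. Col7a1, the anchoring fibril collagen, fell from 638, 587 and 622 CPM to 69.5, 70.4 and 70.8 CPM, or by 3.13 on the log2 scale (SE 0.07, adjusted p = 2.57e-21). Col15a1, a basement membrane collagen, rose from 0.882, 0.628 and 1.11 CPM to 24.2, 19.97 and 22.1 CPM (4.65 ± 0.20, adjusted p = 4.69e-16). Col4a1 and Col4a2, the main chains of basement membrane collagen, fell by 1.16 and 1.38, but they share a stretch on opposite strands, so their counts may not be separate.

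Of 22 proteases that can cut the matrix 13 were lower, 5 higher and 4 not called, with a median of -0.73. Loxl2, a crosslinking oxidase overlapped by an antisense transcript, was at 458, 458 and 478 CPM in p53 KO and at 56.4, 59.0 and 54.6 CPM in p53 Y217C, and fell by 3.04 on the log2 scale (SE 0.06, adjusted p = 6.84e-22). Mmp2, a gelatinase, was at 596, 636 and 652 CPM against 154, 154 and 158 CPM, and fell by 2.02 (SE 0.06, adjusted p = 1.03e-18). Plau, the urokinase that activates plasminogen, fell from 49.96, 41.6 and 44.3 CPM to 3.37, 3.73 and 3.84 CPM, or by 3.63 (SE 0.09, adjusted p = 5.20e-21). Mmp15, a membrane-bound protease, was among those that rose, by 3.03 ± 0.14 (adjusted p = 1.09e-15).

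Proteoglycans were split as well, 10 of 29 higher and 14 lower, against 34.8% and 35.6% of all genes. Prelp, a small leucine-rich proteoglycan, rose from 12.4, 15.96 and 19.2 CPM to 557, 468 and 578 CPM (5.07 ± 0.21, adjusted p = 1.68e-14). Cspg4 (NG2), carried by pericytes and oligodendrocyte precursors, fell from 245, 235 and 257 CPM to 53.2, 54.8 and 56.7 CPM, or by 2.16 (SE 0.07, adjusted p = 7.95e-19). Hspg2 (perlecan) fell by 1.58 (SE 0.09, adjusted p = 1.26e-13). Among the 28 integrin and laminin genes 11 were higher and 13 lower, Itga7 and Itga11 rising by 2.88 ± 0.11 and 2.72 ± 0.16 and Itgb7 falling by 3.62 (SE 0.25).

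The factors that drive the epithelial to mesenchymal transition were lower in 6 of 11 and higher in 3, with a median of -1.06. Snai1 (Snail) was at 97.4, 106 and 104 CPM in p53 KO and at 27.4, 27.3 and 25.1 CPM in p53 Y217C, and fell by 1.95 (SE 0.06, adjusted p = 5.45e-19). Snai2 (Slug) fell by 1.09 (SE 0.07, adjusted p = 2.89e-13) and Twist1 by 1.06 (SE 0.06, adjusted p = 2.14e-13). Zeb1 rose, from 91.9, 96.6 and 94.1 CPM to 204, 190 and 201 CPM (1.07 ± 0.06, adjusted p = 9.69e-14), and an antisense transcript overlaps it. Cd44, the hyaluronan receptor, fell by 1.02 (SE 0.08, adjusted p = 4.22e-11).

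**Figure D3:**
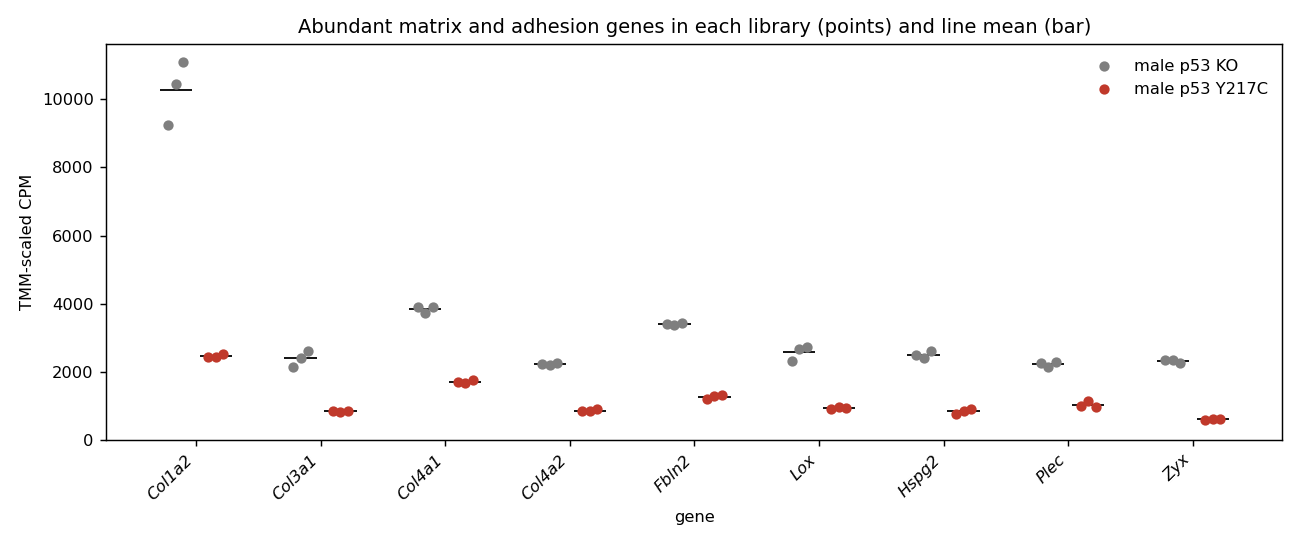
TMM-scaled CPM on a linear axis from 0 of 9 matrix, adhesion and cytoskeletal genes in the 3 male p53 KO libraries (grey) and the 3 male p53 Y217C libraries (red), 1 point per library and a bar at the mean of the line. All p53 Y217C points lie below all p53 KO points of the same gene, and for Col1a2 the libraries run from 9236 to 11102 CPM in p53 KO and from 2427 to 2512 CPM in p53 Y217C.

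The 10 genes with the highest mean CPM among those that changed beyond 2-fold were the 9 plotted, all lower in p53 Y217C, and Gm42418. Zyx, zyxin of focal adhesions, was at 2342, 2332 and 2266 CPM in p53 KO and at 577, 608 and 604 CPM in p53 Y217C, and fell by 1.96 (SE 0.07, adjusted p = 2.81e-18). Lox, another collagen crosslinker, fell by 1.47 (SE 0.05, adjusted p = 1.83e-17) and Fbln2, fibulin 2, by 1.43 (SE 0.08, adjusted p = 2.70e-14). Gm42418 overlaps ribosomal RNA sequence and went from 1822, 1581 and 1503 CPM to 2437, 3087 and 5194 CPM (1.13 ± 0.31, adjusted p = 3.05e-03). The mitochondrial genome was higher throughout, 14 of 14 genes with a median log2 difference of 0.71, while the medians of the autosomes ran from -0.16 to 0.20 and that of the X chromosome was 0.23. The part of ribosomal and mitochondrial RNA in the other results was not tested.

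The FGF pathway carries signals for growth of glial cells through receptor tyrosine kinases and ERK, and its feedback genes report on its activity. Of 23 measured genes 7 were higher and 6 lower, with a median of 0.13, and 11 were higher with library totals alone. Fgf2, a glial mitogen, was at 2.13, 1.87 and 2.30 CPM in p53 KO and at 10.96, 10.6 and 10.5 CPM in p53 Y217C (2.35 ± 0.12, adjusted p = 7.64e-15). Nudt6, which overlaps Fgf2 on the opposite strand, rose from 3.24, 3.36 and 3.47 CPM to 14.5, 13.2 and 14.9 CPM (2.08 ± 0.15, adjusted p = 9.72e-12). No library of one line reached the range of the other for Fgf2 or Nudt6, and reads from the overlap may be counted to either.

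Fgf1, another ligand, rose from at most 0.167 CPM to at least 3.31 CPM (4.69 ± 0.44, adjusted p = 9.14e-10), whereas Fgf7, the keratinocyte growth factor of mesenchyme, fell from 143, 162 and 158 CPM to 52.6, 50.5 and 50.5 CPM, or by 1.59 (SE 0.09, adjusted p = 2.95e-14). Fgfrl1, a receptor that lacks the kinase domain, rose from 42.9, 40.5 and 43.9 CPM to 225, 201.6 and 233 CPM (2.37 ± 0.08, adjusted p = 4.36e-18), and Fgfr1 rose by 0.41 ± 0.05 (adjusted p = 1.34e-07). Of these genes, Fgf1 averaged above 1 CPM in male p53 Y217C alone, so the filter could keep it only as higher. The ETS factors induced by this pathway were divided. Etv5 rose by 1.00 ± 0.06 (adjusted p = 4.43e-13), Etv1 rose by 0.87 ± 0.13 (adjusted p = 2.10e-06) and Etv4 fell by 1.26 (SE 0.09, adjusted p = 8.22e-12).

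In PDGF, EGF and IGF signalling 10 of 14 ligands were higher and 3 lower. The 15 receptors and binding proteins had 3 higher and 7 lower. Pdgfra, the receptor of oligodendrocyte precursors and fibroblasts, was at 19.5, 20.6 and 20.4 CPM in p53 KO and at 2.77, 2.56 and 2.79 CPM in p53 Y217C, and fell by 2.90 (SE 0.13, adjusted p = 2.56e-15). Pdgfrb, the receptor of mural cells, rose from 240, 272 and 290 CPM to 796, 760 and 804 CPM (1.56 ± 0.07, adjusted p = 1.69e-15). Egfr, often amplified in glioblastoma, fell from 124, 116 and 124 CPM to 54.6, 48.3 and 55.4 CPM, or by 1.20 (SE 0.07, adjusted p = 1.20e-13). Igfbp3, which binds insulin-like growth factors outside the cell, rose from 23.7, 25.6 and 25.1 CPM to 457, 412 and 471 CPM (4.17 ± 0.14, adjusted p = 1.02e-17), and the ligand gene Igf2 fell by 3.55 (SE 0.22, adjusted p = 9.99e-13).

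Wnt genes were called in both directions, 15 higher and 21 lower of 44, with a median of -0.13. Lgr6, a receptor for R-spondins that strengthens Wnt signals, rose from 1.53, 1.53 and 1.75 CPM to 97.0, 91.2 and 95.4 CPM (5.87 ± 0.20, adjusted p = 1.11e-17). The secreted antagonists Sfrp4 and Sfrp1 rose by 4.40 ± 0.15 (adjusted p = 3.78e-18) and 2.46 ± 0.09 (adjusted p = 5.47e-17). Other secreted proteins of the pathway moved the other way, Dkk2 falling from 88.6, 82.9 and 84.3 CPM to 8.88, 7.94 and 7.86 CPM, by 3.37 (SE 0.07, adjusted p = 2.02e-22), and Dkk3 by 3.47 (SE 0.12, adjusted p = 2.56e-17). Axin2, a common target of the pathway, rose from 1.51, 1.48 and 1.71 CPM to 9.33, 9.87 and 9.01 CPM (2.58 ± 0.16, adjusted p = 4.46e-13).

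Of 14 Notch genes 5 were higher and 4 lower, and 9 were higher with library totals alone. The receptor Notch1 rose from 79.3, 79.4 and 84.8 CPM to 256, 263 and 270 CPM (1.70 ± 0.08, adjusted p = 1.59e-15). Its targets Hey1 and Nrarp rose by 1.89 ± 0.13 (adjusted p = 6.36e-12) and 1.82 ± 0.20 (adjusted p = 1.51e-08), and Hey2, of the same family as Hey1, fell by 1.42 (SE 0.15, adjusted p = 1.18e-08). In TGF-beta and BMP signalling 17 of 41 were higher and 21 lower. Chrdl1, a BMP antagonist, rose by 3.32 ± 0.21 (adjusted p = 7.93e-13).

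Rap1 is a small GTPase that controls adhesion through integrins and is switched on by exchange factors. The 11 GTPases and exchange factors had 6 higher, all beyond 2-fold, and 3 lower, with a median of 1.53, and the 18 GTPase-activating proteins and effectors had 8 higher and 9 lower. Rapgef3 (EPAC1), an exchange factor opened by cyclic AMP, was at 6.80, 5.84 and 6.55 CPM in p53 KO and at 52.2, 44.0 and 53.3 CPM in p53 Y217C (2.96 ± 0.11, adjusted p = 8.78e-18). Rapgef4 (EPAC2) rose from at most 0.145 CPM to at least 1.82 CPM (4.13 ± 0.38, adjusted p = 7.86e-10) and Plce1, a phospholipase with exchange activity for Rap1, rose by 3.21 ± 0.11 (adjusted p = 3.24e-18). The opposing enzyme Rap1gap rose too, from 2.96, 3.63 and 3.82 CPM to 15.8, 15.1 and 18.3 CPM (2.23 ± 0.13, adjusted p = 1.29e-13). Rapgef4 averaged above 1 CPM in male p53 Y217C alone, so the filter of the deposited counts could keep it only as higher.

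Chemokines and cytokines were mostly lower, 17 of 27, with 6 higher and a median of -0.74. Ccl2, which attracts monocytes, was at 57.4, 59.3 and 57.2 CPM in p53 KO and at 7.64, 7.58 and 8.15 CPM in p53 Y217C, and fell by 2.90 (SE 0.12, adjusted p = 1.71e-16). Its mean in male p53 KO was itself high, since female p53 KO averaged 7.58 CPM and only female p53 R172H (119 CPM) was higher. In Ccl2's fall a trait of the p53 KO line and an effect of Y217C cannot be told apart. Ccl7, its neighbour in function, fell by 2.31 (SE 0.10, adjusted p = 8.06e-16), and Cxcl12, a ligand of CXCR4, by 0.46 (SE 0.07, adjusted p = 9.01e-07). Cxcl14, a chemokine expressed in many epithelia and in brain, rose against the group, from 4.91, 6.23 and 7.30 CPM to 230, 202.2 and 246 CPM (5.19 ± 0.12, adjusted p = 1.44e-20). Cx3cl1 (fractalkine), which signals to microglia, rose from 79.6, 89.7 and 93.8 CPM to 290, 270 and 295 CPM (1.70 ± 0.08, adjusted p = 6.72e-16).

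Interferon response genes were lower in 28 of 47 and higher in 6, with a median of -0.55. Psmb8, a catalytic subunit of the immunoproteasome, was at 2.07, 2.79 and 3.27 CPM in p53 KO and at 0.1497, 0.0517 and 0.0402 CPM in p53 Y217C, and fell by 5.04 (SE 0.33, adjusted p = 1.20e-12). Isg15, a ubiquitin-like interferon target, fell by 2.16 (SE 0.29, adjusted p = 1.20e-06), and Tap1, the peptide transporter of antigen presentation, by 2.15 (SE 0.21, adjusted p = 3.20e-09), although Psmb9 overlaps Tap1 on the opposite strand.

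Exceptions within the interferon group were Ifit3, an antiviral protein, which rose from 1.51, 2.48 and 2.83 CPM to 24.2, 17.2 and 23.3 CPM (3.21 ± 0.26, adjusted p = 6.58e-10), with reads that may be shared with its near copy Ifit3b. B2m, the light chain of MHC class I, rose from 284, 310 and 314 CPM to 568, 518 and 595 CPM (0.89 ± 0.08, adjusted p = 1.16e-09), whereas the heavy chains H2-K1 and H2-D1, whose reads can be shared with similar genes, fell by 0.83 (SE 0.11) and 0.73 (SE 0.10).

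Metabolic groups differed in direction. Of 36 glycolysis and hypoxia genes, 23 were lower and 8 higher, with a median of -0.35. Slc16a3 (MCT4), which exports lactate, was at 138, 124 and 133 CPM in p53 KO and at 3.86, 3.97 and 3.76 CPM in p53 Y217C, and fell by 5.09 on the log2 scale (SE 0.11, adjusted p = 3.12e-21). Ldha, the lactate dehydrogenase subunit that favours lactate, fell from 760, 707 and 691 CPM to 327, 361 and 332 CPM, or by 1.08 (SE 0.08, adjusted p = 1.62e-11). Ldhb, the other subunit, rose from 18.3, 22.5 and 20.5 CPM to 92.8, 74.6 and 92.0 CPM (2.08 ± 0.10, adjusted p = 1.26e-15). Gapdh, a glycolytic enzyme often used as a reference gene, fell by 0.72 (SE 0.09, adjusted p = 1.39e-07), and the glucose transporter gene Slc2a3 rose by 2.08 ± 0.10 (adjusted p = 1.97e-15).

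Lysosome genes were higher in 24 of 29 and lower in 4, with a median log2 difference of 0.84. Ctsd, the protease cathepsin D, was at 452, 514 and 543 CPM in p53 KO and at 1230, 1127 and 1273 CPM in p53 Y217C (1.27 ± 0.09, adjusted p = 1.21e-11). Lamp1, a main protein of the lysosomal membrane, rose by 0.93 ± 0.06 (adjusted p = 1.38e-12) and Lipa, the acid lipase that frees cholesterol, by 1.65 ± 0.09 (adjusted p = 6.30e-14). Ctsk, cathepsin K, was an exception, falling from 13.0, 15.9 and 16.1 CPM to 2.52, 2.29 and 2.36 CPM, or by 2.65 (SE 0.12, adjusted p = 1.20e-15). Enzymes of sterol synthesis were higher in 13 of 19 and lower in 2, with a median of 0.58, among them Msmo1, a demethylase of the pathway (1.20 ± 0.07, adjusted p = 5.40e-14). Srebf1, a regulator of lipid synthesis, fell by 1.02 (SE 0.07, adjusted p = 3.91e-12), and Rai1 overlaps it on the opposite strand.

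The target genes of wild-type p53 showed no common direction. Of 35, 12 were higher, 14 lower and 9 not called, with a median of -0.07. Cdkn1a (p21), the inhibitor that stops the cell cycle on p53's order, was at 18.5, 21.1 and 21.4 CPM in p53 KO and at 9.99, 9.68 and 10.6 CPM in p53 Y217C, and fell by 1.01 (SE 0.08, adjusted p = 3.65e-11). Mdm2, which encodes the ligase that degrades p53, was at 67.3, 67.9 and 63.9 CPM against 66.7, 65.1 and 70.9 CPM, and the lines overlapped (adjusted p = 0.713). Among genes of cell death, Tnfrsf10b, a TRAIL receptor, fell from 31.6, 32.6 and 33.2 CPM to 4.43, 4.75 and 4.50 CPM, or by 2.83 (SE 0.07, adjusted p = 1.12e-20), and Pmaip1 (Noxa) fell by 1.35 (SE 0.12, adjusted p = 1.96e-10). Bbc3 (Puma) had a log2 difference of -0.07 ± 0.08 (adjusted p = 0.445). Perp rose by 2.20 ± 0.14 (adjusted p = 4.78e-13) and Trp53inp1 by 2.03 ± 0.15 (adjusted p = 2.32e-11).

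In the axis from INK4 proteins to RB, 9 of 24 were higher and 12 lower. Cdk6, a kinase that phosphorylates RB, was at 56.5, 49.7 and 48.4 CPM in p53 KO and at 9.48, 11.5 and 9.45 CPM in p53 Y217C, and fell by 2.34 (SE 0.11, adjusted p = 5.65e-15). Its relative Cdk4 rose by 0.47 ± 0.04 (adjusted p = 1.54e-09), and their partner Ccnd1 (cyclin D1) rose from 239, 229 and 224 CPM to 573, 605 and 563 CPM (1.33 ± 0.05, adjusted p = 4.69e-17). Cdkn1c (p57), an inhibitor, fell from 54.3, 70.4 and 67.8 CPM to 6.39, 4.49 and 6.62 CPM, or by 3.46 (SE 0.15, adjusted p = 9.90e-16). Ccne1 (cyclin E1) fell by 1.26 (SE 0.12, adjusted p = 1.54e-09). Rb1 rose by 1.20 ± 0.11 (adjusted p = 6.39e-10), with Lpar6 inside it on the opposite strand.

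Genes of the dividing cell changed little in size. No DNA replication gene passed 2-fold, and of 45 measured 8 were higher and 15 lower, with a median of -0.05. The count of higher genes was 3 without p53 KO replicate 3 or p53 Y217C replicate 2, and 5 without p53 KO replicate 2 or p53 Y217C replicate 3. Of 28 mitosis genes 0 were higher and 14 lower, again with none past 2-fold and a median of -0.22, and with library totals alone 2 were higher and 12 lower. Aurka, a spindle kinase, was at 79.8, 70.3 and 70.7 CPM in p53 KO and at 45.2, 54.6 and 44.2 CPM in p53 Y217C, and fell by 0.62 (SE 0.08, adjusted p = 2.45e-07). Bub1, of the spindle checkpoint, fell by 0.72 (SE 0.12, adjusted p = 8.64e-06).

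Of 34 glioma driver genes 16 were lower and 8 higher. Tert, the catalytic subunit of telomerase, was at 8.56, 8.88 and 9.02 CPM in p53 KO and at 0.861, 0.867 and 1.06 CPM in p53 Y217C, and fell by 3.25 (SE 0.12, adjusted p = 7.31e-18). Mycn fell from 2.13, 1.73 and 1.26 CPM to 0.175, 0.207 and 0.241 CPM, or by 3.02 (SE 0.26, adjusted p = 2.76e-10). Nf1 had a log2 difference of -0.15 ± 0.07 (adjusted p = 0.0810). With library totals alone more driver genes were higher than lower (13 and 10), as were p53 target genes (14 and 12).

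Some genes went from next to nothing in one line to clear expression in the other. Under a rule of at most 3 counts in every library of one line and at least 1 CPM in every library of the other, 15 genes (0.104%) were switched on in p53 Y217C and 3 (0.0208%) switched off. The latter count was 7 without p53 Y217C replicate 2 and 5 without p53 Y217C replicate 3. Serpina3n, a serine protease inhibitor of reactive astrocytes, had 0 counts in each p53 KO library and 333, 198 and 324 counts in p53 Y217C, which is at least 133-fold higher against a floor of 3 counts per library. Ppp1r14c, an inhibitor of protein phosphatase 1, was at least 94.8-fold higher and Rnase1, a secreted ribonuclease, at least 92.3-fold higher by the same floor. Both were expressed in male p53 Y202C as well, at 2.08 and 1.66 CPM. Scrg1 had 1 count in all p53 KO libraries together and 378, 289 and 393 counts in p53 Y217C, a ratio of 1550 with a 95% exact interval of 278 to 61400. Nlrp2, of the NOD-like receptor family, had 0, 2 and 3 counts against 926, 920 and 872, a ratio of 796 (341 to 2450), and was also at 39.8 CPM in male p53 Y202C.

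Of the 3 genes switched off, Tfap2b, an AP-2 factor of the neural crest, had 850, 1396 and 1389 counts in p53 KO and 3, 0 and 2 in p53 Y217C, a ratio of 497 (213 to 1530). Tfap2b was also at 0.00903 CPM in male p53 Y202C and 0 CPM in female p53 Y217C, and averaged 1.81 to 244 CPM in the remaining lines. Morc1, a silencer of transposons in the male germ line, had 194, 365 and 382 counts against 0 in each library, at least 70.1-fold lower. Male p53 KO was the line apart for Morc1, at 2.72 CPM against at most 0.0973 CPM in every other line, female p53 KO included. Pabpc4l, of the poly(A)-binding protein family, was the other, with 90, 204 and 184 counts against 2, 1 and 0, a ratio of 109 (37.0 to 530).

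The comparison with p53 KO does not say whether a level was particular to the line, so each gene was set against all 7 other lines of the series with a test against each. A gene was counted when it differed by more than 2-fold in the same direction from every one of them, which held for 415 genes higher in male p53 Y217C (2.88%) and 291 lower (2.02%). The higher genes included 9 of the 28 astrocyte markers, namely Apoe, Aqp4, Gfap, Hopx, Id4, Kcnj10, Mlc1, Slc1a2 and Sparcl1. Of these, Gfap, Kcnj10 and Sparcl1 averaged above the 1 CPM of the deposited filter in this line alone. They could therefore be kept only as higher here, as could every other gene above 1 CPM in this line alone. The 415 higher and 291 lower genes thus did not pass the filter on equal terms. No astrocyte marker was among the lower genes.

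Sparcl1 averaged 53.3 CPM in male p53 Y217C and 0.0128 to 0.225 CPM in the other 7 lines. Gfap averaged 6.93 CPM against 0.0482 to 0.257 CPM, and Mlc1 53.6 CPM against 0.0219 to 2.41 CPM. For these 3 genes no other line, of either culture, came near the level of male p53 Y217C. Other astrocyte genes were as high or closer elsewhere. Slc1a3 averaged 106 CPM in male p53 Y217C but 281 CPM in female p53 R172H, and Clu 242 CPM against 228 CPM in female p53 R172H. Sox2 averaged 193 CPM against 150 CPM in male p53 Y202C, and Aldh1l1 56.6 CPM against 28.4 CPM there. Sema5b, a semaphorin of axon guidance, averaged 142 CPM against 0.0526 to 1.05 CPM, and Lgr6 averaged 94.5 CPM against 0.222 to 1.61 CPM. Fgf2 averaged 10.7 CPM against 0.972 to 3.97 CPM. By the same rule of a called difference beyond 2-fold from every line, 4 of the 29 Rap1 genes counted as higher, among them Rapgef3 and Rapgef4, and 0 of the 14 Notch genes did. Notch1 had its highest mean in male p53 Y217C all the same, at 263 CPM against 52.6 to 160 CPM. Rapgef4 averaged 2.13 CPM against at most 0.864 CPM in the other lines, so the filter at 1 CPM could keep it only as higher.

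On the lower side, Wnt16, a Wnt ligand, had 0 counts in every male p53 Y217C library and averaged 0.204 to 4.25 CPM in the other lines. Dkk3 averaged 6.16 CPM against 46.1 to 193 CPM, Plau 3.65 CPM against 19.9 to 45.3 CPM, and Slc16a3 3.86 CPM against 10.98 to 132 CPM. Col1a2 averaged 2457 CPM against 5194 to 15246 CPM, and Cdk6 10.1 CPM against 26.1 to 60.8 CPM. These falls were thus against every mutant line as well as against both p53 KO lines.

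**Figure D4:**
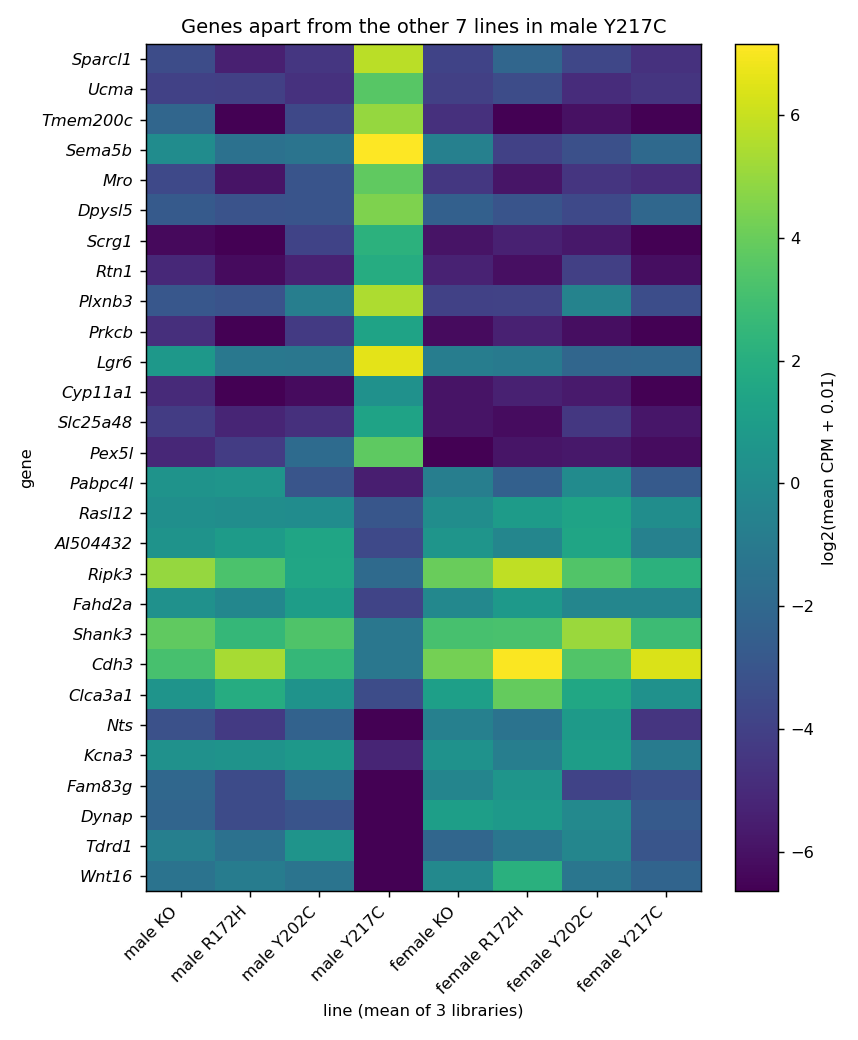
Heat map of the mean of 3 libraries in each of the 8 lines, as log2 of CPM with 0.01 added, for 28 genes that differed most from all 7 other lines, 14 higher (top rows) and 14 lower (bottom rows) in male p53 Y217C. The male p53 Y217C column is the brightest of each row for genes such as Sparcl1, Ucma and Sema5b and the darkest for genes such as Wnt16, Tdrd1 and Kcna3. Among the higher genes, Sparcl1, Ucma, Mro and Tmem200c averaged above 1 CPM in this line alone, so the filter of the deposited counts could keep them only as higher.

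The same mutation was compared with p53 KO in the female culture, where 8165 genes differed. The culture's sex and its history cannot be told apart, since each sex is 1 culture. Of the genes that differed, 6278 did so in both cultures, which is 61.8% of the male and 76.9% of the female genes. Of these 6278, 4513 differed in the same direction and 1765 in the opposite one. The difference between the effects was tested as an interaction and was called for 7913 genes (54.8%), 3964 with the more positive effect in the male culture and 3949 with the more negative. Among genes more than 2-fold higher in the male comparison, 239 were also more than 2-fold higher in the female one, 192 were more than 2-fold lower there, and 1245 had a called interaction. Among those more than 2-fold lower the numbers were 296 lower, 102 higher and 1155 with an interaction.

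Astrocyte genes differed between the cultures. The median of the 28 markers was 1.67 in the male and -0.45 in the female comparison, and the interaction was positive for 22 and negative for 2. Gfap, Kcnj10 and Sparcl1 passed the filter at 1 CPM through male p53 Y217C alone, so a positive interaction was all but given for them. Gfap, Mlc1, Sparcl1, S100b, Aqp4 and Kcnj10 averaged at most 0.210 CPM in both female lines. Their female differences, which enter the female median, therefore rest on few counts. Sox2 rose by 2.98 in the male culture and was at a mean of 0 CPM in female p53 Y217C. Id4 fell by 3.53 in the female culture (interaction 7.92 ± 0.16, adjusted p = 1.66e-21), Slc1a3 fell by 2.57 there (interaction 5.68 ± 0.16, adjusted p = 9.76e-19), and Lhx2 by 5.24 (interaction 8.19 ± 0.41, adjusted p = 1.88e-14). The cultures started from unlike levels. Female p53 KO averaged 1.59 CPM for Sox2 and 0.701 CPM for Lhx2, against 24.5 and 3.34 CPM in male p53 KO. Id4 and Slc1a3 averaged 12.3 and 18.7 CPM in female p53 KO, against 2.54 and 12.2 CPM in male p53 KO. Sox9 had an interaction of 0.03 (adjusted p = 0.804). Clu rose in both, by 1.60 in the female culture, with a larger rise in the male one (interaction 2.49, adjusted p = 6.96e-09).

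Chemokine and interferon groups were reversed between the cultures in their medians, -0.74 and -0.55 in the male against 1.05 and 0.41 in the female comparison. Ccl2 rose by 1.06 in the female culture (interaction -3.96 ± 0.16, adjusted p = 6.82e-16). Pdgfra rose by 1.45 there (interaction -4.35 ± 0.19, adjusted p = 2.07e-15) and Cdkn1c by 1.20 (interaction -4.66 ± 0.19, adjusted p = 1.62e-15). Starting levels were unlike here too. Ccl2 averaged 58.0 CPM in male and 7.58 CPM in female p53 KO, against 7.79 and 15.8 CPM in p53 Y217C. Pdgfra averaged 20.2 and 3.09 CPM in p53 KO, against 2.71 and 8.41 CPM. For both genes the level of the p53 KO lines and the effect of Y217C cannot be told apart. Col1a2 had a female log2 difference of 0.16 that did not pass the test (adjusted p = 0.106), with an interaction of -2.23 ± 0.12 (adjusted p = 8.51e-14). Ldha, by contrast, fell by 1.03 in the female culture too, and its interaction was -0.05 (adjusted p = 0.726).

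**Figure D5:**
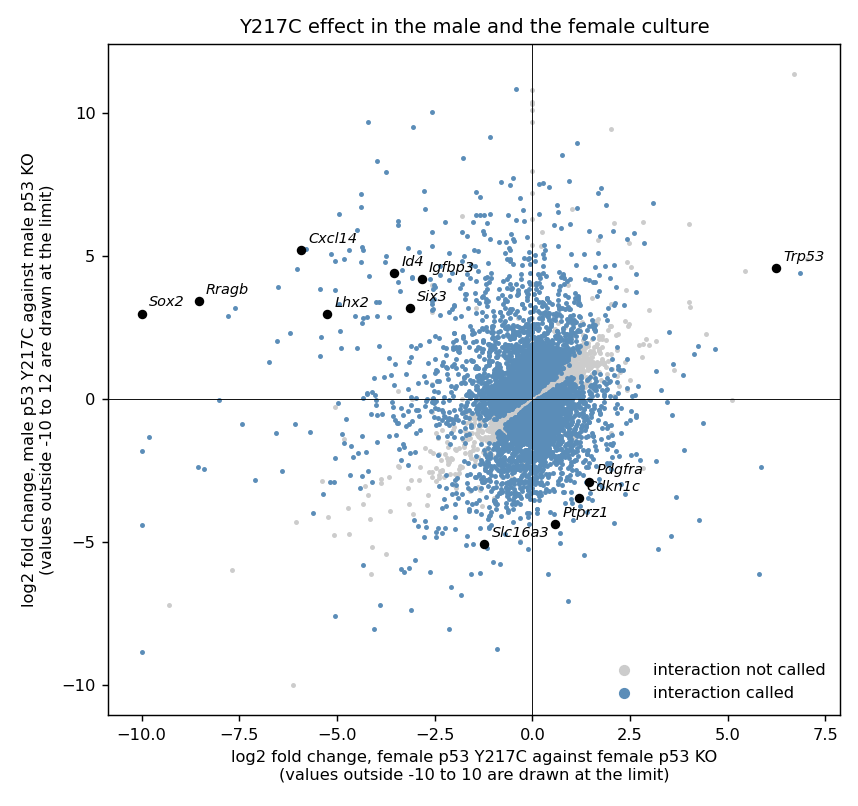
Log2 difference of p53 Y217C from p53 KO in the female culture (x axis) and in the male culture (y axis), 1 point per gene of 14427, blue where the interaction was called and grey where it was not. Named genes are in black, with Sox2, Rragb, Lhx2, Cxcl14 and Id4 at the upper left (higher in the male, lower in the female comparison), Pdgfra, Cdkn1c and Ptprz1 at the lower right, and Trp53 higher in both.

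Markers of other brain cells were read for what else the cultures held. The 5 endothelial markers were all lower in p53 Y217C, with a summed level of 215 to 236 CPM in p53 KO and 37.0 to 40.6 CPM in p53 Y217C. Flt1, a VEGF receptor, held most of those counts, falling by 2.51 (SE 0.08, adjusted p = 9.38e-19), and Cdh5 (VE-cadherin) fell from 35.5, 31.8 and 32.7 CPM to 4.60, 4.90 and 4.57 CPM. For Cdh5 male p53 KO was the line apart, since every other line averaged 0.297 to 4.89 CPM, with female p53 KO at 2.20 CPM. Flt1 averaged 222 CPM in female p53 KO and 173 CPM in male p53 KO. The 5 oligodendrocyte lineage markers summed to 283 to 305 CPM in p53 KO and 89.3 to 95.9 CPM in p53 Y217C, with 2 higher and 3 lower, and most of those counts were of Cspg4. The 5 neuron markers summed to 122 to 130 CPM and 128 to 139 CPM, with 1 higher and 4 lower.

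That neuronal sum hid opposite movements, since Map2, of dendritic microtubules, rose by 3.13 ± 0.09 (adjusted p = 2.38e-19), while Tubb3, the neuronal tubulin, fell by 2.48 (SE 0.12, adjusted p = 4.84e-15). The 3 microglia and leukocyte markers summed to 68.0 to 84.5 CPM in p53 KO and 26.5 to 28.6 CPM in p53 Y217C, with 2 higher and 1 lower. Tmem119 held most of those counts and made the fall, from a mean of 73.0 to 16.4 CPM. Cd68 rose from a mean of 3.53 to 10.1 CPM and Csf1r from 0.650 to 1.12 CPM. No measured marker of these groups was at 0 in every library of a line. Only 5 of 9 listed endothelial, 5 of 12 oligodendrocyte, 5 of 12 neuron and 3 of 12 microglia and leukocyte markers were in the deposited table. The others were absent from it, and genes with low counts had been left out, so these counts do not show that each cell type was present. The part of such cells in the results was not tested.

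The 4 Y-linked genes measured as a group were all lower in p53 Y217C. Ddx3y was at 63.3, 66.1 and 62.6 CPM in p53 KO and at 27.6, 27.1 and 27.9 CPM in p53 Y217C, and fell by 1.22 (SE 0.08, adjusted p = 2.45e-11). Kdm5d and Uty fell by 1.19 and 1.16 and Eif2s3y by 0.48 (SE 0.09, adjusted p = 1.29e-04). The lines did not overlap for Ddx3y, and the cause of the difference was not tested.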

How the data were processed

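RNA-seq was performed on polyadenylated RNA of 24 libraries, 3 for each of 8 lines. The authors aligned reads with STAR 2.5.1a to the Ensembl release 76 assembly (GRCm38) and counted uniquely aligned reads per gene with featureCounts 1.4.6-p5. The deposited values are raw counts, from which ribosomal genes and genes with low counts had been left out. Counting strand is not given in the sources used here. Symbols and overlaps came from GENCODE M21.

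Counts of all 24 libraries were fitted with edgeR 4.0.16 (quasi-likelihood, robust, TMM scaling), with 1 mean per line. Contrasts were male p53 Y217C minus male p53 KO, the female counterpart, their difference (interaction) and male p53 Y217C minus each other line. Genes were called at a Benjamini-Hochberg adjusted p of at most 0.05. Each SE was worked back from the test, as the log2 difference divided by the square root of its F value. It rests on the spread fitted over all 24 libraries. Scripts were tested on simulated data. Alternatives were limma 3.58.1 (voom), DESeq2 1.42.0, other scalings, a count filter, a replicate block and leaving out each library.

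Named genes were the key genes of 32 lists, up to 4 large changes per list, the 10 largest changes each way, the 5 most counted switched genes each way, the 10 most counted genes past 2-fold, the 5 largest interactions each way and the 5 genes furthest from all other lines each way. Genes outside this rule were picked after their values were seen. They were Alx1, Alx4, Apoe, Axin2, Ccl7, Clu, Ctsd, Cx3cl1, Dkk2, Dkk3, En1, Etv1, Etv4, Etv5, Fgf7, Gapdh, Hopx, Isg15, Kcnj10, Lamp1, Msx1, Nfib, Nfix, Nr2f1, Otx1, Rap1gap, Sfrp1, Tap1 and Tbx18. The members and lists were chosen with earlier results of these data known. Lists are described by counts and medians, with no set test. Intervals and floors cover counting error only. Some genes are not reported here.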

Additional observations from a re-analysis of the deposited data

Results flagged for a closer look

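The effect of p53 Y217C differed between the male and the female culture for 7913 genes by edgeR's interaction test with Benjamini-Hochberg adjustment. Among genes called in opposite directions in the 2 cultures, the largest positive differences (male minus female effect, log2) were those of Sox2 (13.10), Nlrp2 (12.55), Rragb (11.94), Tmem200c (11.54) and Tnn (11.40). Rragb, a GTPase that signals amino acid supply to mTORC1, averaged 0.376 CPM in male p53 KO and 4.08 CPM in male p53 Y217C, against 3.74 and 0.00847 CPM in the female lines. Tnn, the matrix protein tenascin N, averaged 0.257 and 24.1 CPM in the male lines against 0.853 and 0.0241 CPM in the female lines.

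The largest negative differences were those of Cxcl3 (-11.91), Gm26760 (-8.49), Stk32b (-8.47), Acpp (-8.34) and Capn11 (-8.22). Cxcl3, a neutrophil chemokine, averaged 0.100 CPM in male p53 KO and was at 0 counts in male p53 Y217C, against 0.0838 and 4.74 CPM in the female lines. Acpp, a secreted acid phosphatase, averaged 3.45 and 0.121 CPM in the male lines against 0.235 and 2.82 CPM in the female lines. Where a line was at 0 in all its libraries (Sox2 and Tmem200c in female p53 Y217C, Cxcl3 and Stk32b in male p53 Y217C), the fitted difference depends on the prior count and is no bound.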

How the results depend on the processing

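The count of 10161 genes was 11171 by limma, 10261 by DESeq2, 10129 with DESeq2's size factors, 10650 with only the 6 libraries compared, 8865 at an adjusted p of at most 0.01 and 9506 to 9769 when 1 library was left out. No gene called under both the original fit and any of these changed direction. With library totals only, 5993 genes were higher and 4172 lower. The 2-fold count became 5805 (3132 higher, 2673 lower) above a log2 difference of 0.5, 1203 (627 and 576) above 2, and 2840 to 2935 when 1 library was left out. A floor of 10 counts gave 43 genes switched on and 30 off, and leaving out 1 library gave 15 to 21 and 3 to 7. The interaction count of 7913 was 9388 by limma, 8124 by DESeq2 and 7432 to 7714 when 1 library was left out. The counts apart from all other lines were 468 higher and 228 lower with library totals only, and 407 to 430 higher and 279 to 301 lower when 1 library was left out.

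The numbers did not pair the samples, since same-numbered libraries had correlations of their deviations of -0.211, -0.151 and 0.122. With the replicate block 10050 genes differed, 2877 of them by more than 2-fold, and 7783 had an interaction, with 416 higher and 291 lower than all other lines.

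All 11 changes of sign were of genes that had not been called. Sox9 was at 0.0039 by DESeq2 and with its size factors, 0.0985 with library totals, 0.0155 with the 6 libraries and -0.0824 to 0.0374 on leaving out 1 library. Bbc3 was at 0.0332 with library totals. On leaving out 1 library Nes ranged over -0.0011 to 0.1439 and Mdm2 over -0.0186 to 0.0453. Nf1 was called by limma (-0.17) and with the 6 libraries (-0.12), and Nfia with library totals (0.27) and with the 6 libraries (0.19). The other 2661 values of named genes and 120 interactions stayed on their side of the threshold. With library totals 11 FGF genes, 9 Notch genes and 2 mitosis genes were higher. The cause of these moves was not tested. Where a line had only a few counts of a gene per library, single counts set the ratio.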
